A study of Danio rerio with 18 samples.

Results

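The genes crx, otx5, nr2e3, vsx1, atoh7, rx1, rx2 and rx3 encode transcription factors of the developing retina. They are 8 of 3010 genes that could be named on the array. They were chosen by name and on earlier results of the same data, in which several of them were lower in the injected embryos, so the differences between morphants and controls are given for them as a description, with no test. All 8 had a probe set that passed the filter on low values, and rx2 had a pair of them.

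Gene expression was measured in RNA of whole zebrafish embryos of the AB strain on an Affymetrix zebrafish array. One group received, at the 1-cell stage, a morpholino (a synthetic antisense oligonucleotide that blocks use of its target transcript) against tnnt2, the cardiac troponin T gene, whose loss leaves the heart without a beat, and is called the morphants. The titles call the other group wild type, the treatment text mentions a control morpholino, and control embryos is the name used here for it. RNA was taken 36, 48 and 60 hours after fertilisation from 3 samples per group, 18 arrays in all, each sample from embryos of several parent pairs in equal numbers. One protocol gives 32 hours for the earliest time, and the 36 hours of the titles are used. The labels do not say whether the samples came from separate clutches or injections, so a p-value covers the spread among the samples at hand, which may be technical. In RNA of whole embryos fewer cells of a type and less RNA per cell cannot be told apart.

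The retina forms from an eye field in the forebrain, in which genes of the Rx family keep cells as retinal progenitors. Progenitors then leave the cell cycle in an order that starts with ganglion cells, for which atoh7 is required. The bipolar cells marked by vsx1 and the photoreceptors come later in that order. The homeobox factors crx and otx5 and the nuclear receptor nr2e3 act in photoreceptors, and crx and otx5 also act in the pineal organ, which holds photoreceptors of its own.

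Array medians of the log2 values as deposited lay between 1.19 and 3.86, so the values were quantile normalised, and each level or difference below stands relative to the rest of its array. Levels are log2 values and can be negative. A level under 0.62, the 25th percentile of the probe set means, is called dim, and no fold is given where a group mean is dim. Of 15502 probe sets, 11626 were tested. The targeted gene, tnnt2a, differed between morphants and controls by -0.02, -0.02 and -0.31 at the successive times (standard error 0.47, 3 arrays per group). None of these passed limma's test (adjusted p = 0.992, 0.999 and 0.744). Whether the morpholino acts on splicing or on translation is not stated in the labels.

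**Figure D1:**
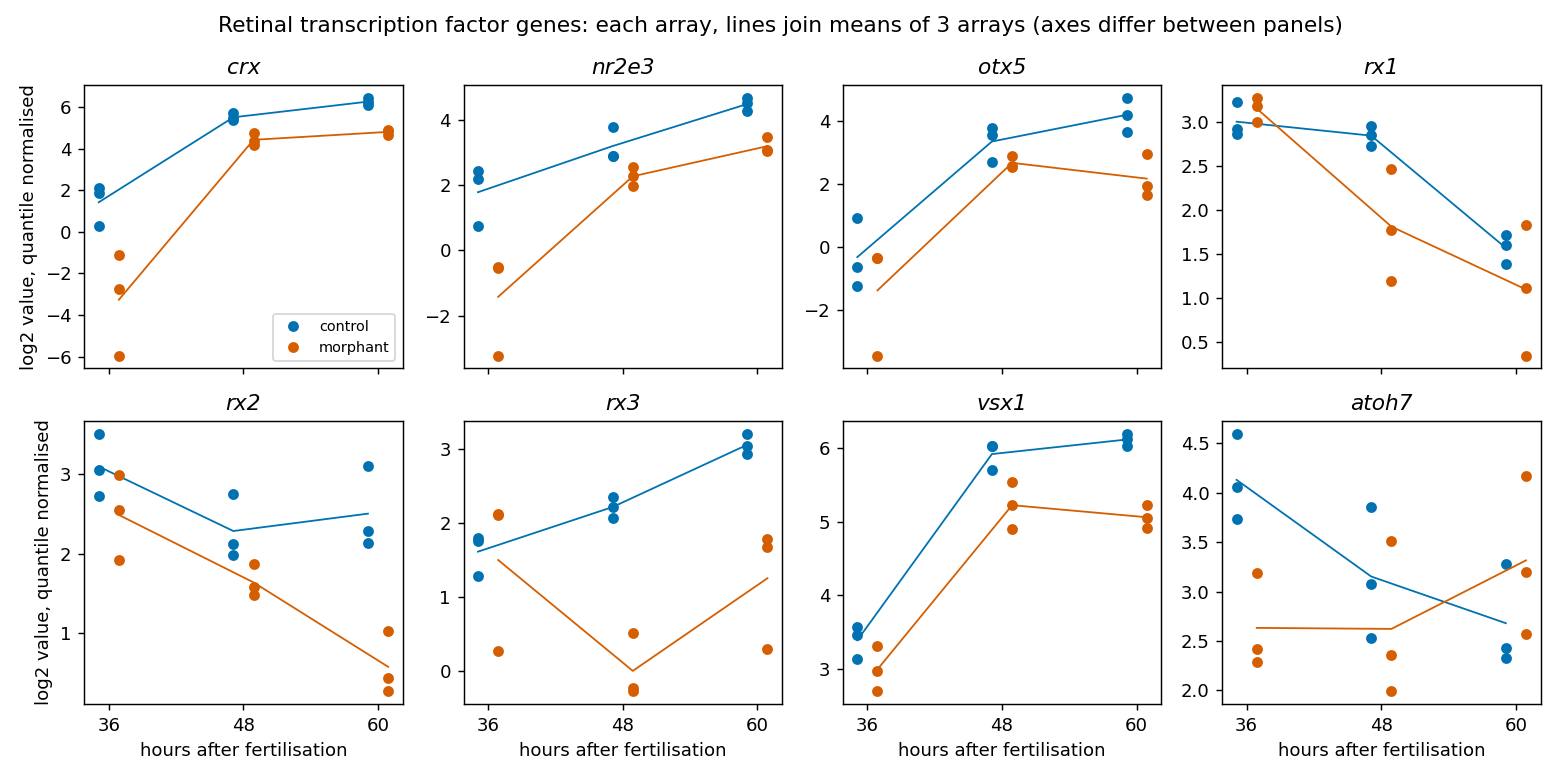
Log2 value of the 8 genes on each array (points) against hours after fertilisation, with control embryos in blue and morphants in orange and lines through the means of 3 arrays. The means of crx, otx5, nr2e3 and vsx1 are higher at 60 than at 36 hours in both kinds of embryo and those of rx1 and rx2 lower. The morphants of crx and nr2e3 lay below the controls at all 3 times.

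Crx, which activates photoreceptor genes, was the gene with the widest span. In control embryos its log2 value was 2.12, 1.87 and 0.28 on the arrays of 36 hours, 5.37, 5.46 and 5.71 at 48 hours, and 6.25, 6.45 and 6.09 at 60 hours. In morphants it was -5.95, -2.75 and -1.09 at 36 hours, 4.17, 4.36 and 4.76 at 48 hours, and 4.90, 4.66 and 4.87 at 60 hours. Every morphant array lay below every control array of its time. The morphants of 36 hours were all dim, and the standard error deposited with each of those 3 values was between 1.37 and 3.67, against 0.12 to 0.15 in the controls of 60 hours. Morphants minus controls gave -4.69, -1.08 and -1.45 in order of time (standard error 0.75). Without morphant array 1 the difference at 36 hours was -3.34.

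Nr2e3, a nuclear receptor known from mouse to repress cone genes in rods, was named from its clone and from the symbol of that clone in the authors' lists. Its control values were 2.44, 2.18 and 0.74 at 36 hours, 2.91, 3.80 and 2.90 at 48 hours, and 4.53, 4.68 and 4.27 at 60 hours. In morphants they were -0.54, -3.23 and -0.50, then 2.56, 1.98 and 2.29, then 3.47, 3.04 and 3.09. As for crx, no morphant array reached a control array of the same time. The differences were -3.21, -0.93 and -1.29 at 36, 48 and 60 hours (standard error 0.57). The deposited standard errors of the 3 dim morphant values at 36 hours were between 2.05 and 3.38, and the difference there was -2.31 without morphant array 2.

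Otx5, a relative of crx known in zebrafish for its part in pineal gene expression, had dim means at 36 hours in both kinds of embryo. The control values were 0.92, -0.62 and -1.24 at 36 hours, 2.71, 3.57 and 3.81 at 48 hours, and 4.21, 4.75 and 3.67 at 60 hours. Morphant values were -0.33, -0.33 and -3.44, then 2.55, 2.91 and 2.60, then 2.95, 1.66 and 1.94. The groups overlapped at 36 and 48 hours and were apart at 60 hours, when the difference was -2.03 ± 0.70 (SE, 3 arrays per group). The differences at the earlier times were -1.06 and -0.68, and the one at 36 hours was -0.02 without morphant array 3.

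Vsx1, a homeobox factor of bipolar interneurons, had the smallest spread between arrays, with a within-group SD of 0.23. The control values were 3.46, 3.57 and 3.13 at 36 hours, 5.70, 6.03 and 6.03 at 48 hours, and 6.13, 6.02 and 6.19 at 60 hours. In morphants they were 2.70, 3.32 and 2.97, then 4.91, 5.23 and 5.53, then 4.91, 5.22 and 5.05. The groups overlapped at 36 hours and no longer did at 48 and 60 hours. The differences were -0.39, -0.69 and -1.05 (standard error 0.19). With arrays centred on their medians in place of quantile normalisation, they were -0.46 at 48 hours and -1.30 at 60 hours. The authors' lists give this probe set a second symbol.

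Atoh7, a basic helix-loop-helix factor needed for the first neurons of the retina, the ganglion cells, had means lower in morphants at 36 and 48 hours and higher at 60 hours. Its control values were 4.60, 3.74 and 4.06 at 36 hours, 3.85, 2.53 and 3.07 at 48 hours, and 2.33, 2.43 and 3.28 at 60 hours. Morphant values were 2.42, 3.19 and 2.29, then 3.51, 2.36 and 1.99, then 4.17, 3.20 and 2.58. All morphants lay below all controls at 36 hours, and the groups overlapped at 48 and at 60 hours. The differences were -1.50, -0.53 and 0.64 (standard error 0.46). Leaving out 1 array at a time gave -0.98 to -0.18 at 48 hours and 0.21 to 1.01 at 60 hours, so their sizes rest on single arrays.

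The Rx genes were among the dimmer of the 8. Rx1, a factor of retinal progenitors and of young photoreceptors, had control values of 3.23, 2.86 and 2.92 at 36 hours, 2.95, 2.85 and 2.73 at 48 hours, and 1.39, 1.71 and 1.60 at 60 hours. In morphants they were 3.27, 3.18 and 3.00, then 1.19, 2.46 and 1.77, then 1.83, 1.11 and 0.34. The groups were apart at 48 hours only, where the difference was -1.03 ± 0.36 (SE, 3 arrays per group). It was 0.15 at 36 hours and -0.47 at 60 hours, and the last was 0.13 in the values as deposited, in which the median of all probe sets tested was 0.39. The authors' lists give this probe set 4 symbols, so its signal may come from related transcripts as well.

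Rx2 was measured by a pair of probe sets, and the brighter one, whose suffix (_s_at) marks probes that can match more than one transcript, represents the gene. Its control values were 3.51, 3.05 and 2.73 at 36 hours, 1.98, 2.75 and 2.12 at 48 hours, and 2.28, 3.1 and 2.13 at 60 hours. Morphant values were 1.92, 2.55 and 2.99, then 1.86, 1.58 and 1.47, then 1.02, 0.27 and 0.44. The groups were apart at 48 and 60 hours, with differences of -0.65 and -1.93 (standard error 0.38), and -0.61 at 36 hours. The dimmer probe set gave -0.19, -1.61 and -2.78 (standard error 0.87). Its morphant means at 48 and 60 hours, -0.06 and -1.54, were dim, with deposited standard errors of up to 1.90 and 2.49. Without the controls of 36 hours, the morphants of 36 hours or the controls of 48 hours, its mean over the other groups missed the filter on low values. Its differences at 36 and 48 hours are therefore not free of that filter and are no independent support for the brighter probe set. Over the 18 arrays the Pearson correlation of the pair was 0.75, and both gave their lowest morphant mean at 60 hours.

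Rx3, which is required for the eye field to form optic vesicles and is also expressed in the hypothalamus, had control values of 1.80, 1.29 and 1.75 at 36 hours, 2.23, 2.08 and 2.36 at 48 hours, and 2.93, 3.21 and 3.04 at 60 hours. Morphant values were 0.27, 2.12 and 2.13, then -0.27, 0.51 and -0.23, then 1.78, 0.30 and 1.68. The morphants were dim on all 3 arrays of 48 hours, and the groups did not overlap at 48 or 60 hours. The differences were -0.11, -2.22 and -1.81 at 36, 48 and 60 hours (standard error 0.50). The difference at 36 hours was 0.50 without morphant array 1. It was 0.18 in the values as deposited, in which the median of all probe sets tested was also 0.18.

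**Figure D2:**
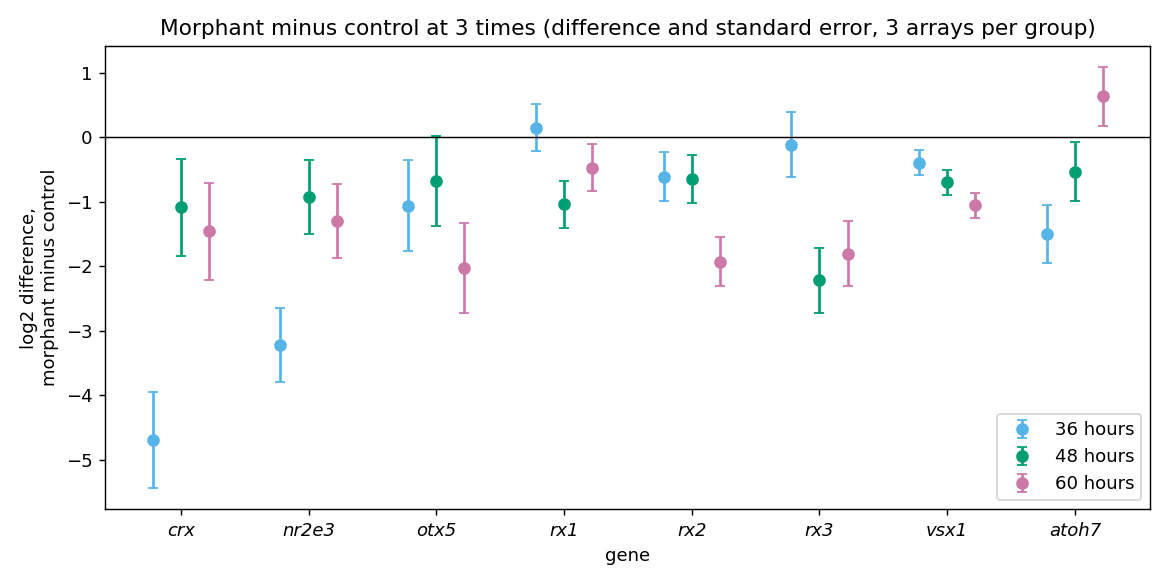
Log2 difference of morphants minus controls for the 8 genes at 36, 48 and 60 hours, as points with bars of 1 standard error from the fit over 18 arrays. The points of crx and nr2e3 at 36 hours (-4.69 and -3.21) rest on dim morphant means, vsx1 lies at -0.39, -0.69 and -1.05, and atoh7 lies at -1.50 at 36 hours and 0.64 at 60 hours.

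Where a group mean was dim, as for the morphants of crx and nr2e3 at 36 hours, rx3 at 48 hours and rx2 at 60 hours, the size of a difference is not fixed, and sizes are not ranked between times. The morphant mean was the lower one for 7 of 8 genes at 36 hours, 8 of 8 at 48 hours and 7 of 8 at 60 hours, against 49.4%, 48.2% and 50.3% of all probe sets tested. The median difference of the 8 genes was -0.83, -0.81 and -1.37 at the 3 times, and the medians of all probe sets tested lay between -0.00399 and 0.0117. All 3 morphant arrays lay below all 3 control arrays for 3 genes at 36 hours (crx, nr2e3 and atoh7), where 6.93% of all probe sets tested did. At 48 hours 6 genes did (crx, nr2e3, rx1, rx2, rx3 and vsx1), with 11.8% of all probe sets, and at 60 hours 6 genes did (crx, nr2e3, otx5, rx2, rx3 and vsx1), with 11.3%. These differences chose the genes, so nothing is read from the counts.

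In the authors' deposited table, which combines the 3 arrays of a group and gives a log2 ratio of morphant over control, the ratio of crx was -1.41 at 48 hours and -1.14 at 60 hours. That table gave nr2e3 -3.53 at 36 hours, rx3 -2.38 and vsx1 -1.07 at 48 hours, otx5 -1.21 at 60 hours, and atoh7 -1.23, -0.05 and 0.27 at the 3 times. The ratio of nr2e3 at 36 hours had an SD of 1.31. It does not follow from the group values given with it, 1.31 in controls and 0 in morphants. At 60 hours several of the ratios in the authors' deposited table were closer to 0 than the differences above, with vsx1 at -0.43, rx3 at -0.85, nr2e3 at -0.79, rx1 at 0.00024, and rx2 at -0.88 on the brighter and -0.55 on the dimmer probe set. The scales differ, since that table gave crx 5.59 in controls of 60 hours, where the deposited mean was 5.56 and the normalised mean 6.26. In the values as deposited the median difference of all probe sets tested at 60 hours was 0.39. The differences in those values were -0.80 for vsx1, -1.27 for rx3, -0.90 for nr2e3, 0.13 for rx1 and -1.35 for the brighter probe set of rx2. The part of that median in the authors' ratios was not tested. The authors' deposited lists of probe sets higher in controls hold atoh7 and nr2e3 at 36 hours, crx, rx1, rx2, rx3 and vsx1 at 48 hours, and crx and otx5 at 60 hours. No ratio of crx or otx5 at 36 hours from the authors' deposited table was used here. For rx1, rx2, rx3 and vsx1 the authors' deposited table gave ratios between -0.0144 and 0.00211 at 36 hours.

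The changes over time in control embryos were not the readout on which the genes were chosen, but the same control arrays entered that readout. Choosing genes that are high in controls at a time favours a rise to it or a fall from it. The p-values below are therefore not free of the selection, and how far it bears on them was not tested. Over 36 to 60 hours 4 genes rose and 2 fell past the threshold in limma. Those that rose were crx, 28.7-fold (log2 difference 4.84 ± 0.75, adjusted p = 0.000222), otx5 by 4.52 ± 0.70 from a dim start (adjusted p = 0.000222), vsx1, 6.61-fold (2.72 ± 0.19, adjusted p = 5.89e-08), and nr2e3, 6.53-fold (2.71 ± 0.57, adjusted p = 0.00299). Those that fell were rx1, 2.71-fold (-1.44 ± 0.36, adjusted p = 0.0104), and atoh7, 2.73-fold (-1.45 ± 0.46, adjusted p = 0.0338). Among all probe sets tested 9.57% rose and 8.4% fell. The difference of rx3 was 1.45 ± 0.50 and that of rx2 -0.59 ± 0.38, and neither passed (limma adjusted p = 0.0537 and 0.309). The call of atoh7 was lost without control array 1 or 3 of 36 hours or control array 1 or 2 of 60 hours (limma adjusted p from 0.0608 to 0.12). It also missed the threshold without the intensity trend, with weights from the deposited standard errors and in a fit of the groups compared alone (limma adjusted p = 0.0546, 0.0644 and 0.0619), and rx1 missed it in the last of these (limma adjusted p = 0.0688).

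For crx, otx5 and vsx1 most of the rise in controls fell into the step from 36 to 48 hours. In that step crx rose by 4.09 ± 0.75 (limma adjusted p = 0.00111), otx5 by 3.67 ± 0.70 (adjusted p = 0.00144) and vsx1 by 2.53 ± 0.19 (adjusted p = 5.80e-07). These 3 of 8 genes stood beside 11% of all probe sets that rose and 11.6% that fell, and none of the 8 fell past the threshold in limma. An unadjusted p under 0.05 was reached by 6 of 8, among them nr2e3, rx2 and atoh7, and by 36.3% of all probe sets. From 48 to 60 hours 0 of 8 rose and 1 fell, rx1 by -1.28 ± 0.36 (limma adjusted p = 0.0163), where 13.5% of all probe sets rose and 12.9% fell. In that step 2 of 8, nr2e3 and rx1, had an unadjusted p under 0.05, as did 39.7% of all probe sets. Rises in that step did pass in a fit of the groups compared alone, for crx, nr2e3 and rx3 (limma adjusted p = 0.00344, 0.00506 and 0.0357), and with weights from the deposited standard errors, for crx and nr2e3 (limma adjusted p = 0.00117 and 0.00135). With arrays centred on their medians vsx1 rose in it by 0.69 (limma adjusted p = 0.0253). That call of rx1 was lost without control array 1 of 48 hours or control array 1 of 60 hours (limma adjusted p = 0.0576 for each). For nr2e3 the steps were 1.42 ± 0.57 and then 1.29 ± 0.57, and neither step passed in the fit used here (limma adjusted p = 0.0829 and 0.102). Its first step passed in the values as deposited (limma adjusted p = 0.0230), and its second under the 2 alternatives just given.

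In morphants the course from 36 to 60 hours starts or ends on the values that chose the genes, so it is described without p-values. Crx went from a mean of -3.27 to 4.81 and nr2e3 from -1.43 to 3.20. The log2 difference of 60 minus 36 hours was 8.08 ± 0.75 for crx, 4.63 ± 0.57 for nr2e3, 3.55 ± 0.70 for otx5 and 2.06 ± 0.19 for vsx1. It was -2.06 ± 0.36 for rx1, -1.91 ± 0.38 for rx2, -0.25 ± 0.50 for rx3 and 0.68 ± 0.46 for atoh7. Leaving out 1 dim array moved several of these. The difference was 6.73 for crx without morphant array 1 of 36 hours, 3.72 for nr2e3 without array 2 and 2.52 for otx5 without array 3.

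**Figure D3:**
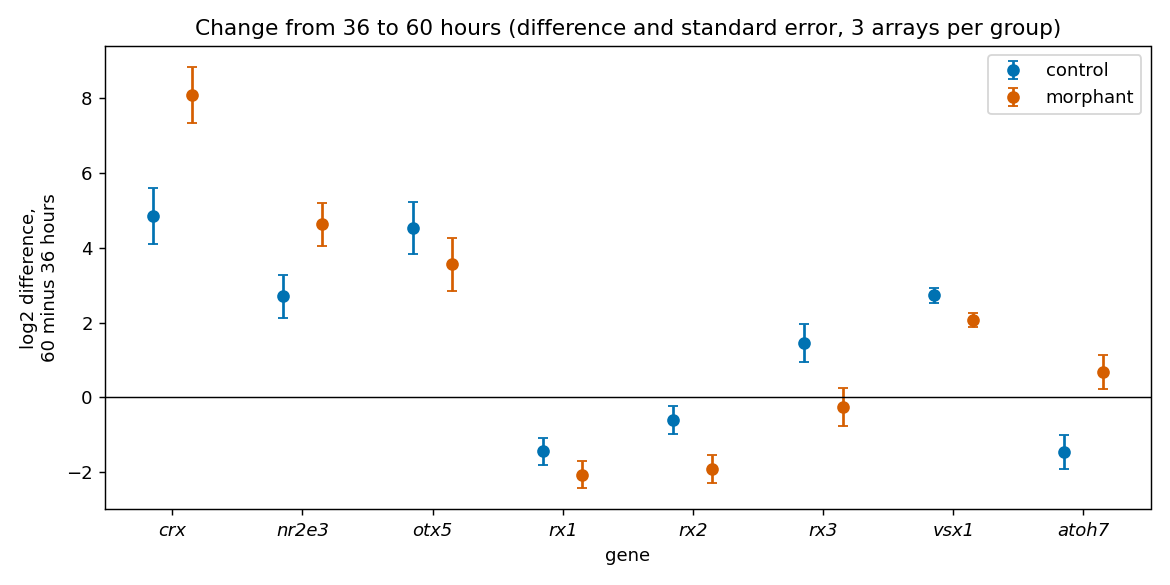
Log2 difference of 60 minus 36 hours for the 8 genes in control embryos (blue) and in morphants (orange), with bars of 1 standard error. Crx, nr2e3, otx5 and vsx1 lie above 0 and rx1 and rx2 below 0 in both kinds of embryo. Atoh7 lies at -1.45 in controls and 0.68 in morphants, a contrast that was not tested.

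Set against the control course, the morphant mean of 60 hours was nearest to the control mean of 48 hours for crx, nr2e3, otx5, vsx1, rx2 and atoh7. For nr2e3 both means were 3.20. For crx the morphant mean of 60 hours was 4.81, beside control means of 5.51 at 48 hours and 6.26 at 60 hours. For vsx1 the 3 means were 5.06, 5.92 and 6.11 in the same order. Rx2 at 0.58 lay under all 3 of its control means, the lowest of which was 2.28. Rx1 at 1.09 was nearest to its control mean of 60 hours, and rx3 at 1.26 to that of 36 hours. Nearest did not mean close, with otx5 at -1.18 and vsx1 at -0.86 from the control mean of 48 hours. The morphant values of 60 hours are among those that chose the genes, and all probe sets were not placed this way. Nothing about a delay is read from these positions.

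The deposited standard errors show how much of this rests on dim values. For vsx1 at 48 and 60 hours they were between 0.10 and 0.28 on every array, and for crx at the same times between 0.12 and 0.35. At 36 hours no morphant value of crx, nr2e3 or otx5 had an error under 1.37. Of the 24 values of a group, an error over 1 was given for 7 in controls and 11 in morphants at 36 hours, for 0 in controls and 6 in morphants at 48 hours, and for none in either kind at 60 hours.

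**Figure D4:**
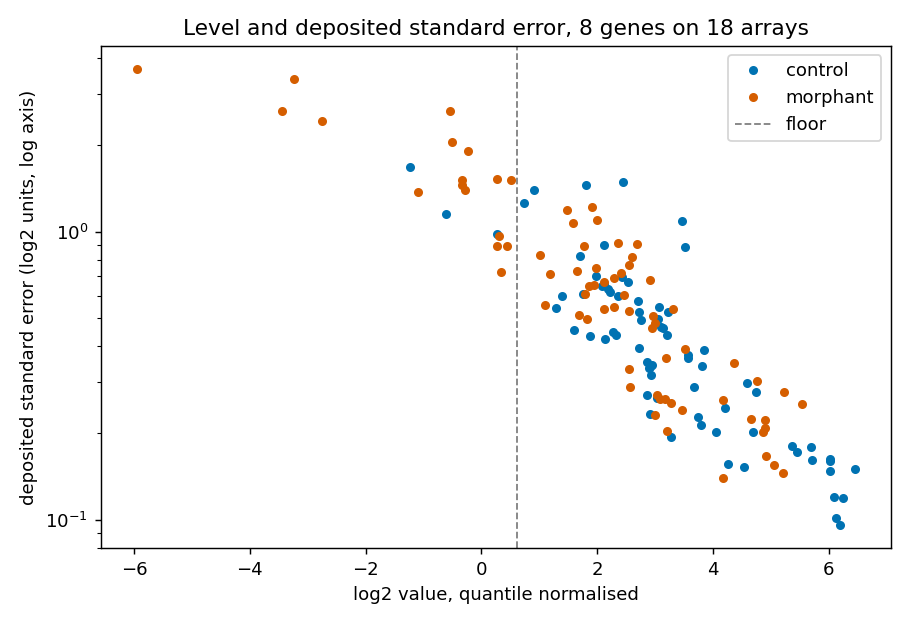
Standard error that the authors deposited with each value (log axis) against the log2 value, for 8 genes on 18 arrays, with controls in blue and morphants in orange and the floor of 0.62 as a dashed line. The lowest value, -5.95 for crx on a morphant array of 36 hours, carries the highest error, 3.67.

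Across the 18 arrays, otx5 and vsx1 (Pearson r = 0.92), crx and vsx1 (0.91) and crx and nr2e3 (0.89) were the most alike of the 8, and rx1 ran against crx (-0.60). The pair rx1 and rx2 gave 0.67, and every correlation of atoh7 with another of the 8 lay between -0.27 and 0.24. These are descriptions, since the arrays fall into 6 groups that share time and treatment. Among 2771 other named genes, crabp1a (0.95) and zgc:136930 (0.94) were most like crx, nog3 (0.95) and pex5 (0.94) most like nr2e3, and appb (0.95) and atp1a3a (0.94) most like otx5. Most like vsx1 were snap25b (0.96) and meis2a (0.95), and most like rx1 were her8a (0.91) and rrm2l (0.87). Rx2 was nearest to znf207b (0.87) and ucp2 (0.87), rx3 to med18 (0.76) and rnf146 (0.75), and atoh7 to carhsp1 (0.72) and u2af1 (0.68).

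Other eye genes, which were not among the 8, were tested for the difference between morphants and controls. Their lists were drawn up with earlier results of these data known, so counts of them are no independent support. The RNA was of whole embryos, so the signal of a listed gene need not come from the eye. At 60 hours 4 of 48 genes were lower in morphants and 0 higher past the threshold in limma, and 20 of 48 had an unadjusted p under 0.05. Among all probe sets tested, 0.92% passed and 17.8% had an unadjusted p under 0.05. The 4 were the ultraviolet opsin gene opn1sw1, the blue opsin gene opn1sw2, the neuronal transcription factor gene bhlhe22 and the synaptic gene snap25b. At 36 and at 48 hours 0 of 48 passed in either direction, and 9 and 10 had an unadjusted p under 0.05. All probe sets gave 0.181% and 0.568% past the threshold, and 13.2% and 10.3% at an unadjusted p under 0.05. The median difference of the 48 was -0.12, -0.17 and -0.40 at the 3 times. Opn1sw1, gnat2, gngt2a, rcvrn2 and cryaa passed the filter on low values only through the controls of 60 hours. Their mean over the other groups fell short of 0.62, so their tests at 60 hours are not free of that filter. In the same way thrb, a retinal transcription factor gene of the lists, passed only through the controls of 48 hours. Its difference at 48 hours (-0.78 ± 0.88), which enters the counts and medians, is not free of the filter. Gngt2a also fell short of 0.62 without the controls of 48 hours, and cryaa without the controls of 36 hours. The differences of gngt2a at 48 hours (-2.13 ± 0.76) and cryaa at 36 hours (-3.00 ± 0.84) are therefore not free of the filter either. Both enter the counts at an unadjusted p under 0.05 and the medians. Of the 48, 4 (gngt2a, rcvrn2, rpe65a and rlbp1a) had their name only through an authors' list of changed probe sets and so were in part picked for a difference. Without them 0, 0 and 4 of 44 passed, with medians of -0.09, -0.13 and -0.37. The counts changed with single arrays. At 60 hours 0 passed without control array 2, 1 without morphant array 2, 2 without control array 1 and 0 in the values as deposited, and at 36 hours 4 passed without control array 3.

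Opn1sw1 fell furthest, from 5.43, 5.26 and 3.56 on the control arrays of 60 hours to -0.17, 0.49 and 0.80 on the morphant arrays, a log2 difference of -4.37 ± 0.70 (limma adjusted p = 0.00896). The morphant values of opn1sw1 averaged 0.37, a dim mean. In the fit used here opn1sw1 was tested only because the controls of 60 hours lifted its mean over the filter. Its call is therefore no support for a lower level. Opn1sw2 read 4.28, 4.48 and 3.43 in controls and 2.26, 1.80 and 2.32 in morphants, 3.83-fold lower (-1.94 ± 0.32, limma adjusted p = 0.0102). Bhlhe22 was 1.89-fold lower (-0.92 ± 0.17, adjusted p = 0.0197 in limma) and snap25b 1.67-fold lower (-0.74 ± 0.17, adjusted p = 0.0453 in limma). The groups did not overlap for any of the 4. Without control array 2 of 60 hours all 4 calls were lost, with limma adjusted p from 0.0600 to 0.196, and each array but control array 3 ended at least 1 of the 4 calls. The call of snap25b was also lost without the intensity trend and in a fit of the groups compared alone (limma adjusted p = 0.0799 and 0.0943). The rod opsin gene rho read 5.50, 6.02 and 4.43 in controls of 60 hours and 3.33, 2.93 and 3.43 in morphants, and its difference of -2.09 ± 0.67 did not pass (limma adjusted p = 0.148).

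**Figure D5:**
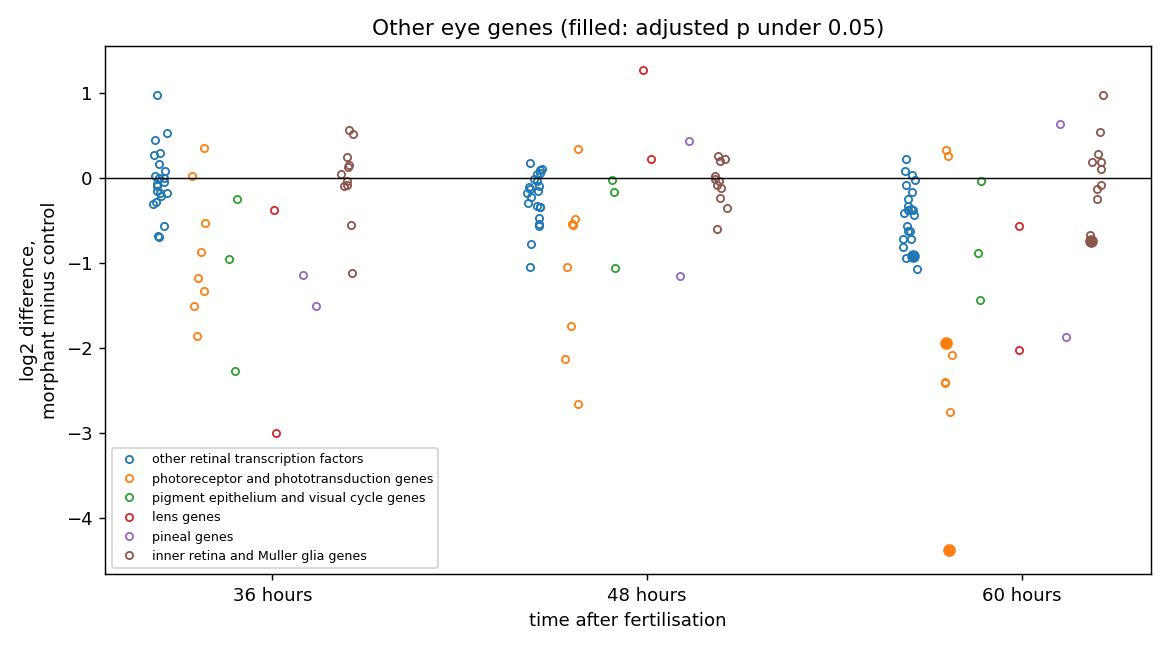
Log2 difference of morphants minus controls for 48 other eye genes in 6 lists at 36, 48 and 60 hours, one point per gene, filled where the adjusted p in limma was under 0.05. The 4 filled points all lie at 60 hours and below 0, from -4.37 for opn1sw1 to -0.74 for snap25b.

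By list, other retinal transcription factors had 22 genes tested, with 0 past the threshold at 36 and 48 hours and 1, bhlhe22, at 60 hours. The count below 0 was 14, 17 and 19 of 22, and their medians were -0.06, -0.17 and -0.40. Otx2b, the homeobox factor of the pigment epithelium and of photoreceptor precursors that is related to crx and otx5, had differences of -0.70, -0.54 and -0.63 (standard error 0.17), which did not pass (limma adjusted p = 0.135, 0.194 and 0.0926). Photoreceptor and phototransduction genes had 8 genes tested of 18 on the array with a name, and 2 passed at 60 hours. Their medians were -1.03, -0.81 and -2.24, and -0.70, -0.55 and -2.01 without the 2 named only through the authors' lists. Opn1sw1, gnat2, gngt2a and rcvrn2 passed the filter only through the controls of 60 hours, so nothing is read from the medians at 60 hours. Gngt2a also needed the controls of 48 hours to pass, so the median of -0.81 at 48 hours is not free of the filter. Among inner retina and Muller glia genes 1 of 11 passed at 60 hours, snap25b, and their median there was 0.10. None of 3 genes of the pigment epithelium and visual cycle, of which 2 were named only through those lists, 2 of the lens and 2 of the pineal passed at any time. The unadjusted p was under 0.05 for 2, 1 and 1 pigment epithelium genes at 36, 48 and 60 hours, for 2, 0 and 2 lens genes, and for 0, 0 and 1 pineal gene. The lens gene cryaa, counted at 36 and 60 hours, would have missed the filter without the controls of either time. The lens counts at these times are therefore not free of the filter. The pineal opsin gene exorh had differences of -1.14, 0.43 and -1.87 at the 3 times (standard error 0.57). The other pineal gene tested, aanat1, had -1.50, -1.15 and 0.63 (standard error 0.74). None of these passed (limma adjusted p from 0.127 to 0.929). The part of the pineal organ in the differences of crx and otx5 was not tested.

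In control development from 36 to 60 hours, 8 of 22 other retinal transcription factors rose and 3 fell, and 5 of 8 photoreceptor genes rose and 1 fell (limma, adjusted p under 0.05), the latter 6 including 2 named only through the authors' lists. Over the same time in controls 9.57% of all probe sets tested rose and 8.4% fell. Of the photoreceptor genes that rose, opn1sw1, gngt2a and rcvrn2 passed the filter only through the controls of 60 hours. The proneural gene neurod1 rose 3.17-fold (1.67 ± 0.18, limma adjusted p = 5.44e-06), and rho rose 12.7-fold (3.67 ± 0.67, limma adjusted p = 0.000928). In morphants 5 of 22 rose and 1 fell in the first list and 1 of 8 rose in the second, where 6.86% of all probe sets rose and 4.98% fell. Whether the lists differ between the kinds of embryo was not tested. Of 15 cell cycle genes 12 fell in controls and 10 in morphants over the same time. Between morphants and controls 0 of 15 differed past the threshold at any time. At each time 2 of 15 had an unadjusted p under 0.05 in limma. Among all probe sets tested that share was 13.2%, 10.3% and 17.8% at 36, 48 and 60 hours.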

How the data were processed

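Total RNA of whole zebrafish embryos was hybridised to 18 Affymetrix arrays, 3 for each of 6 groups, with groups and array numbers taken from the sample titles. Per the deposited readme and file names, the authors estimated log2 expression values and their standard errors on the log2 scale with mmgMOS of the puma package, then combined the 3 arrays of a group and gave log2 ratios. The version of puma and the base of the logarithm are not given in the sources used here, and base 2, which mmgMOS returns, was assumed.

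The 115 manufacturer controls were left out. Values were quantile normalised, and 3876 probe sets whose mean fell short of the 25th percentile (0.62) were dropped. A mean per group was fitted to 18 arrays with limma 3.58.1 in R 4.3.3, with a trend of variance on intensity (degrees of freedom 12 residual, 6.24 prior) and Benjamini-Hochberg adjustment over 11626 probe sets, and the threshold was an adjusted p under 0.05. The script was tested on simulated data. The number of arrays limits the precision. Differences between morphants and controls had a median standard error of 0.28.

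Names came from the authors' tables and a RefSeq gene table of assembly GRCz12tu, used for names only, which named 3529 probe sets, 213 of them through the authors' lists alone. The probe set with the highest mean represents a gene. Named were every one of the 8 genes, the 2 named genes most correlated with each, up to 4 genes per list and comparison with the smallest adjusted p (the 2 smallest where none passed), and tnnt2a. Not every gene that the rule allows is printed, and rho and otx2b at 60 hours fall outside the rule and were named after their values were seen. The 8 genes and the lists were chosen with earlier results of these data known. A test planned for the morphant course of the 8 genes is not reported, because it uses the values on which they were chosen. The alternative without names from the authors' lists was added after the data were seen. Alternatives were another normalisation, filter, variance model, weighting, set of samples and probe set, leaving out each array, and the array number as a replicate block. Deviations of samples with the same number had a correlation over 0.1 for every number between morphants and controls at 36 and 48 hours (lowest 0.10 and 0.18). That was not so at 60 hours (lowest -0.06) or in any comparison between times. Correlations of samples with different numbers are not given beside these. No sequence is shown, and no coordinates are given because no genome of the files' build was used here.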

Additional observations from a re-analysis of the deposited data

How the results depend on the processing

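With the values as deposited, the median difference of all probe sets tested was 0.18, -0.57 and 0.39 at 36, 48 and 60 hours, and the median of the 8 genes at 48 hours was -1.50, while 0 of the other eye genes passed at 60 hours. In those values the control change from 48 to 60 hours turned to -0.66 for crx, -0.43 for nr2e3, -0.86 for otx5, -1.76 for rx2, -1.12 for rx3 and -1.20 for vsx1, where the median of all probe sets was -1.70. The control change from 36 to 48 hours turned to 0.91 for rx1 and 0.30 for rx2 where that median was 0.92, and the median morphant change of the 8 genes from 36 to 60 hours was 0.77. With a filter at the median of all probe sets, which left 3 of the 8 genes, 3 passed in control development, the median morphant change from 36 to 60 hours was 2.06, and the median difference at 36 hours was -1.50. Weighting by the deposited standard errors gave -0.42 for the median at 36 hours and 16 other eye genes at 60 hours. Only the groups compared gave 2 other eye genes at 48 hours. Causes were not tested, except that the stricter filter tested fewer genes.

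Leaving out 1 array at a time gave 5 to 6 of the 8 genes in control development, a median morphant change from 1.20 to 1.59, 0 to 4, 0 and 0 to 6 other eye genes at 36, 48 and 60 hours, and medians of the 8 genes from -1.16 to -0.42, from -0.99 to -0.74 and from -1.47 to -1.27. The change of rx2 in controls from 48 to 60 hours, which did not pass, turned to -0.080 this way (highest 0.45). With the array number as a replicate block, 6 of the 8 genes passed in control development and 0, 0 and 4 other eye genes, the median morphant change was 1.37 and the median differences were -0.83, -0.81 and -1.37, and no call changed. Samples with the same number deviated together weakly at 36 and 48 hours (lowest correlation 0.10 and 0.18). The labels state no pairing, so whether the numbers pair the samples is not known.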
